A study of Mus musculus with 12 samples.

Results

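The genes described here are 33 markers of the thalamus (16 genes), the habenula (3 genes) and the neocortex (14 genes), brain regions that lie around the hippocampus. They were taken as a list of gene symbols chosen with earlier results of these data known, and every probe that carried one of these symbols was looked up in hippocampal arrays. The 33 genes had 74 probes among 45281 probes and 19057 genes with a probe of a single symbol. The thalamus relays sensory signals to the cortex, and the habenula, above it, links the forebrain to the midbrain. Relay neurons of both regions use VGLUT2, the vesicular glutamate transporter encoded by *Slc17a6*, whereas the neocortex is layered and each layer has its own transcription factors and receptors. Some neocortex markers, *Mef2c* among them, are also made by hippocampal neurons. A hippocampus freed of its neighbours should hold little RNA of a gene that is restricted to them. A member that hippocampal cells also make says nothing on what else a dissected hippocampus holds. How much of each member's signal came from neighbouring tissue was not tested. The list is described by its levels, by its differences between the groups and by how it moves with *Slc17a6*.

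The arrays were MouseWG-6 v2.0 BeadChips, hybridised with hippocampal RNA of 12 male C57BL/6J mice aged 12 weeks. The ethanol-exposed (EtOH) group held 6 mice whose dams drank ethanol by choice in early pregnancy, from day 0.5 after mating until day 8.5, and the control group held 6 mice of dams given water. Mice 1 to 3 of each group lay on chip 1 and mice 4 to 6 on chip 2. The labels do not give the litter of a mouse, so p-values measure the spread between these mice, which may include that of litters. A detection p-value gives the chance that negative control beads reach a probe's signal, and 18644 to 20268 probes per array had one under 0.05, or 41.2 to 44.8% of all probes. Signals are given on the log2 scale after background correction and quantile normalisation, and a difference is the EtOH mean minus the control mean. Levels of different probes cannot be set against each other, because each probe binds its target with its own strength.

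The promoters of 2 members are shown because these genes had the largest positive differences at their brightest probe with the processing used here. They were *Tac2* among the thalamus and habenula markers and *Tbr1* among the neocortex markers. Of the 33 members, 29 had a window in the RefSeq promoter table of build GRCm38.p6, with 41 windows in all, each running from 250 bases before an annotated start to 50 bases after it. Capitals mark the match to a TCF/LEF motif, the kind of site that factors such as Tcf7l2 bind.
Tac2 promoter, chr10:127724228-127724527, plus strand: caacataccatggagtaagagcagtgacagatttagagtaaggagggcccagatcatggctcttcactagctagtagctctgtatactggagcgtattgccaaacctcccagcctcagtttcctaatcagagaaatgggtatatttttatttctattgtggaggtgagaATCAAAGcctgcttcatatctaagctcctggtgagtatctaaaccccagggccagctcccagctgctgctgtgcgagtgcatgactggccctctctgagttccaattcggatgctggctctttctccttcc
Tbr1 promoter, chr2:61804203-61804502, plus strand: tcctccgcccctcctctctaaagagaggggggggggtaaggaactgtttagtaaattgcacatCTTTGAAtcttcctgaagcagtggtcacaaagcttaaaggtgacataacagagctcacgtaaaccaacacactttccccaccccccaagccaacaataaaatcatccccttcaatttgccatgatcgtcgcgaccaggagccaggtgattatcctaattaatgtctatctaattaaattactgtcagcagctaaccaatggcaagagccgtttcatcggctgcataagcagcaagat
The *Tac2* window holds ATCAAAG, the reverse complement of CTTTGAT, beginning 81 bases before the start, and the *Tbr1* window holds CTTTGAA beginning 187 bases before it. The motifs named here were all those searched, on both strands, and both the motifs and the 2 promoters were chosen after values and matches had been seen. CTTTGAT was in 3.73% of 32851 mouse windows and in 1 of the 41 member windows, and CTTTGAA was in 5.14% of all windows and again in 1 member window. The T-box motif AGGTGTGA was in 1.28% of all windows and in 0 member windows. The letters TATAAA were in 13.6% of all windows and in 9 member windows, those of *Synpo2*, *Lef1*, *Cux2*, *Tnnt1*, *Etv1*, *Prkcd*, *Tcf7l2* and, with 2 windows, *Mef2c*. A MEF2 motif, one strand of which contains TATAAA, was in 0.164% of all windows and in 1 member window, that of *Synpo2*. The *Tbr1* window belongs to an annotated start inside the gene, whose span begins at base 61802863. All these matches are letters in a window and do not show binding.

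Several of the genes that define the thalamus and habenula were not detected in these hippocampi. A probe was tested when its detection p was under 0.05 on at least 6 of the 12 arrays, and 24 of the 33 members had such a probe (39 probes), among 10835 genes and 19288 probes tested. The 9 others were *Lef1*, *Plekhg1*, *Synpo2*, *Gbx2*, *Slitrk6* and *Nexn* of the thalamus list, *Pou4f1* of the habenula list, and *Foxp2* and *Rspo1* of the neocortex list. Of these, 8 were detected on 0 of 12 arrays at any probe, and *Plekhg1* was detected on 1 control array at 1 of its 3 probes. *Gbx2*, a homeobox factor needed for the thalamus to form, had signals before normalisation of 80.2 to 101.8 in EtOH mice and 75.0 to 111.4 in controls, against array medians of 94.7 to 127.5. *Pou4f1*, the POU factor of habenular neurons, had signals of 76.6 to 95.6 in EtOH mice and 69.0 to 100.6 in controls over 3 probes. Not being detected on these arrays does not show that a transcript was absent, because a probe may fail to report it. A second *Lamp5* probe, for example, was detected on 0 arrays, while the brightest *Lamp5* probe was detected on 12. Among the members, 21 were detected on all 12 arrays.

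Among the transcription factors of the thalamus list, the levels of both groups lay over each other. *Tcf7l2*, a Wnt pathway factor that marks postmitotic thalamic and habenular neurons, was detected on all 12 arrays at 1 of its 6 probes. Its log2 signal was 7.22, 7.35, 7.27, 7.52, 7.50 and 7.66 in EtOH mice 1 to 6, and 7.25, 7.24, 7.48, 7.42, 7.38 and 7.58 in control mice 1 to 6. The groups overlapped over nearly their whole range, and the difference was 0.03 (95% interval -0.17 to 0.22, adjusted p = 0.966, limma). *Zic1*, a zinc finger factor, ran from 5.96 through a median of 6.91 to 7.41 in EtOH mice, and from 6.61 through 7.04 to 7.64 in controls, a difference of -0.29 (interval -0.81 to 0.22). EtOH mice 2 and 4 had the lowest *Zic1* signals, 5.96 and 6.34, and also the lowest signals of *Ttr*, the transthyretin transcript that is abundant in choroid plexus, at 7.81 and 7.18. *Ttr* was between 9.70 and 14.61 in the other 4 EtOH mice and between 8.52 and 15.19 in controls, and the part of choroid plexus RNA in the *Zic1* values was not tested. *Lhx9*, a LIM-homeodomain factor, ran from 5.43 through 6.01 to 6.19 in EtOH mice and from 5.36 through 5.93 to 6.24 in controls. Its 2 tested probes had differences of 0.02 and -0.07, and their signals did not move together over the mice (Pearson r = -0.18).

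Signalling genes of the thalamus list also overlapped between the groups. *Prkcd*, protein kinase C delta, an abundant kinase of relay neurons, was 8.25, 8.05, 8.17, 8.27, 8.30 and 7.29 in EtOH mice 1 to 6, and 8.08, 8.36, 7.25, 8.56, 7.64 and 7.97 in control mice 1 to 6. Low values stood in both groups, EtOH mouse 6 and control mouse 3, and the difference was 0.08 (interval -0.38 to 0.54). *Rgs16*, a regulator of G protein signalling, ran from 7.30 through 7.62 to 7.76 in EtOH mice and from 7.06 through 7.42 to 7.69 in controls, with a difference of 0.18 (interval -0.05 to 0.41). *Ramp3*, which escorts calcitonin family receptors to the membrane, ran from 6.58 through 6.91 to 7.17 in EtOH mice and from 6.32 through 6.75 to 7.16 in controls at its brightest probe. Its 3 tested probes had differences from -0.12 to 0.11, and the r between them ran from -0.31 to 0.76. *Tnnt1*, a troponin T best known from slow muscle fibres, ran from 6.66 through 6.96 to 7.10 in EtOH mice and from 6.53 through 6.79 to 7.18 in controls.

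The remaining tested genes of the thalamus list were well above background. *Ntng1*, netrin G1, a membrane-anchored protein of thalamocortical axons, was 10.39, 10.71, 10.25, 10.30, 10.19 and 10.22 in EtOH mice 1 to 6, and 9.83, 9.83, 10.26, 10.12, 10.30 and 10.32 in control mice 1 to 6. Control mice 1 and 2 stood below every other mouse, and the difference was 0.48 on chip 1 and -0.01 on chip 2. Over both chips it was 0.23 (interval -0.02 to 0.48, adjusted p = 0.759, limma). The 4 tested *Ntng1* probes had differences from 0.07 to 0.23, and the r between them over the mice ran from 0.075 to 0.47. *Adarb1*, an enzyme that edits adenosines in neuronal transcripts, ran from 11.15 through 11.33 to 11.41 in EtOH mice and from 11.11 through 11.23 to 11.37 in controls. *Amotl1*, an angiomotin-like protein of cell junctions, ran from 8.16 through 8.42 to 8.49 in EtOH mice and from 8.16 through 8.37 to 8.50 in controls at its brightest probe, with a difference of 0.04. A dimmer *Amotl1* probe had 7.83 to 8.17 in EtOH mice and 7.40 to 7.95 in controls, a difference of 0.22 (unadjusted p = 0.046, limma). The r between the 2 *Amotl1* probes was 0.37.

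Both detected habenula genes were dim. *Tac2*, the precursor of the neuropeptide neurokinin B, which marks the medial habenula and is also made by some interneurons, had log2 signals of 5.40, 6.03, 5.96, 5.96, 6.33 and 6.36 in EtOH mice 1 to 6. In control mice 1 to 6 they were 5.58, 5.31, 5.70, 5.80, 5.27 and 5.44. All EtOH mice but mouse 1 lay above all controls. The probe was detected in 6 of 6 EtOH mice and in 5 of 6 controls, and its signal before normalisation was 124.8 to 160.5 in EtOH mice and 108.5 to 151.8 in controls, close to the array medians. The difference in *Tac2* was 0.49 (SE 0.15, interval 0.17 to 0.81, unadjusted p = 0.006, limma; two-sided exact permutation test over mice, p = 0.022). It did not pass adjustment over all 19288 probes (adjusted p = 0.717). The *Tac2* difference was 0.26 on chip 1 and 0.71 on chip 2, and 0.42 to 0.61 when each mouse was left out in turn. Without background correction the *Tac2* difference was 0.21, beside 0.22 for *Ntng1* and 0.23 for *Tbr1*, so its rank depends on that step. A second *Tac2* probe was detected on 0 arrays. *Gpr151*, an orphan receptor of habenular axons, ran from 5.18 through 5.74 to 6.02 in EtOH mice and from 4.73 through 5.70 to 6.11 in controls. Its difference of 0.06 had an interval of -0.38 to 0.50, and it was detected in 6 EtOH mice and 5 controls.

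**Figure D1:**
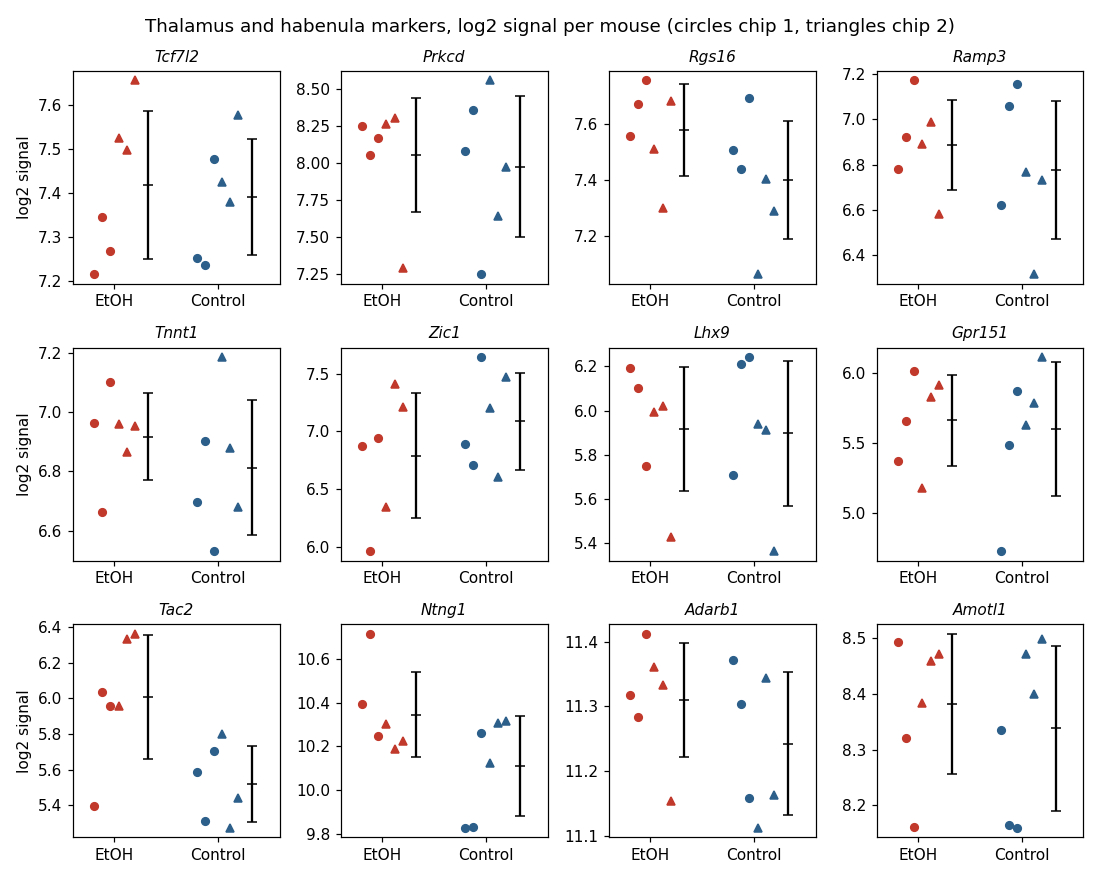
Log2 signal of the 12 tested thalamus and habenula markers at their brightest probe, 1 point per mouse, EtOH left of control, with chip 1 as circles, chip 2 as triangles and bars for mean ± SD (n = 6 each). The groups overlap in every panel, and in *Tac2* 5 of the 6 EtOH mice lie above the highest control at 5.80.

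Among the neocortex markers, those of the upper layers had differences of both signs. *Cux2*, a homeobox factor of upper-layer neurons, was 7.29, 7.73, 7.29, 7.00, 7.25 and 7.70 in EtOH mice 1 to 6, and 7.10, 7.19, 7.31, 6.98, 7.25 and 7.20 in control mice 1 to 6. EtOH mice 2 and 6 stood above all the others, and the difference was 0.21 (interval -0.04 to 0.46). *Lamp5*, a lysosome-associated membrane protein of neurons, ran from 10.95 through 11.07 to 11.25 in EtOH mice and from 10.80 through 10.94 to 11.06 in controls. All 6 EtOH mice lay above the control median, with a difference of 0.14 (interval -0.02 to 0.29, adjusted p = 0.769, limma). *Rasgrf2*, an exchange factor for Ras, was detected in 2 EtOH mice and 4 controls only, and ran from 4.70 through 5.20 to 5.43 in EtOH mice and from 5.29 through 5.32 to 5.88 in controls. Its difference of -0.31 (unadjusted p = 0.033, adjusted p = 0.753, limma) thus compares signals near the limit of detection. *Rorb*, a nuclear receptor of layer IV, ran from 7.22 through 7.35 to 7.58 in EtOH mice and from 7.07 through 7.35 to 7.69 in controls.

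At the brightest probe of each gene, the 2 largest positive differences among the neocortex genes were those of deep-layer transcription factors. *Tbr1*, a T-box factor of layer VI neurons, was 8.99, 9.34, 8.85, 9.01, 8.95 and 8.77 in EtOH mice 1 to 6, and 8.31, 8.88, 8.95, 8.54, 8.82 and 8.75 in control mice 1 to 6. EtOH mouse 2 was the highest and control mouse 1 the lowest, and the difference was 0.27 (SE 0.12, unadjusted p = 0.037, adjusted p = 0.759, limma). *Etv1*, an ETS factor of layer V neurons, ran from 10.10 through 10.35 to 10.65 in EtOH mice and from 9.93 through 10.15 to 10.34 in controls at its brightest probe, a difference of 0.23 (unadjusted p = 0.032, adjusted p = 0.752, limma). The other 2 *Etv1* probes had differences of 0.21 (unadjusted p = 0.033, limma) and 0.28 (unadjusted p = 0.076, limma). Over the mice, the r between *Etv1* probes ran from 0.15 to 0.91, so not all of them moved together. *Mef2c*, a MADS-box factor also made by hippocampal granule cells, had a difference of 0.28 (unadjusted p = 0.029, limma) at its dimmest tested probe. At its brighter probes the difference was 0.10 and 0.09, and the r between its tested probes ran from -0.20 to 0.86. *Fezf2*, which specifies subcerebral projection neurons, ran from 11.39 through 11.70 to 11.73 in EtOH mice and from 11.54 through 11.63 to 11.73 in controls, and its difference was -0.0012 (interval -0.17 to 0.16). *Tle4*, a Groucho corepressor of layer VI, had differences from 0.01 to 0.07 at its 3 tested probes, with r between them from -0.30 to 0.58.

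The neocortex list also holds receptors, a channel and a small membrane-linked protein. *Ntsr1*, the neurotensin receptor of corticothalamic neurons, ran from 6.40 through 6.79 to 7.44 in EtOH mice and from 6.52 through 6.72 to 7.09 in controls. *Scnn1a*, a subunit of the epithelial sodium channel, ran from 6.01 through 6.39 to 6.64 in EtOH mice and from 5.71 through 6.40 to 6.82 in controls. *Rprm*, reprimo, known as a target of p53 and as a marker of layer VI, ran from 9.93 through 10.06 to 10.22 in EtOH mice and from 9.75 through 9.90 to 10.17 in controls. All 6 EtOH mice lay above the control median of *Rprm*, and its difference was 0.16 (interval -0.04 to 0.35).

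**Figure D2:**
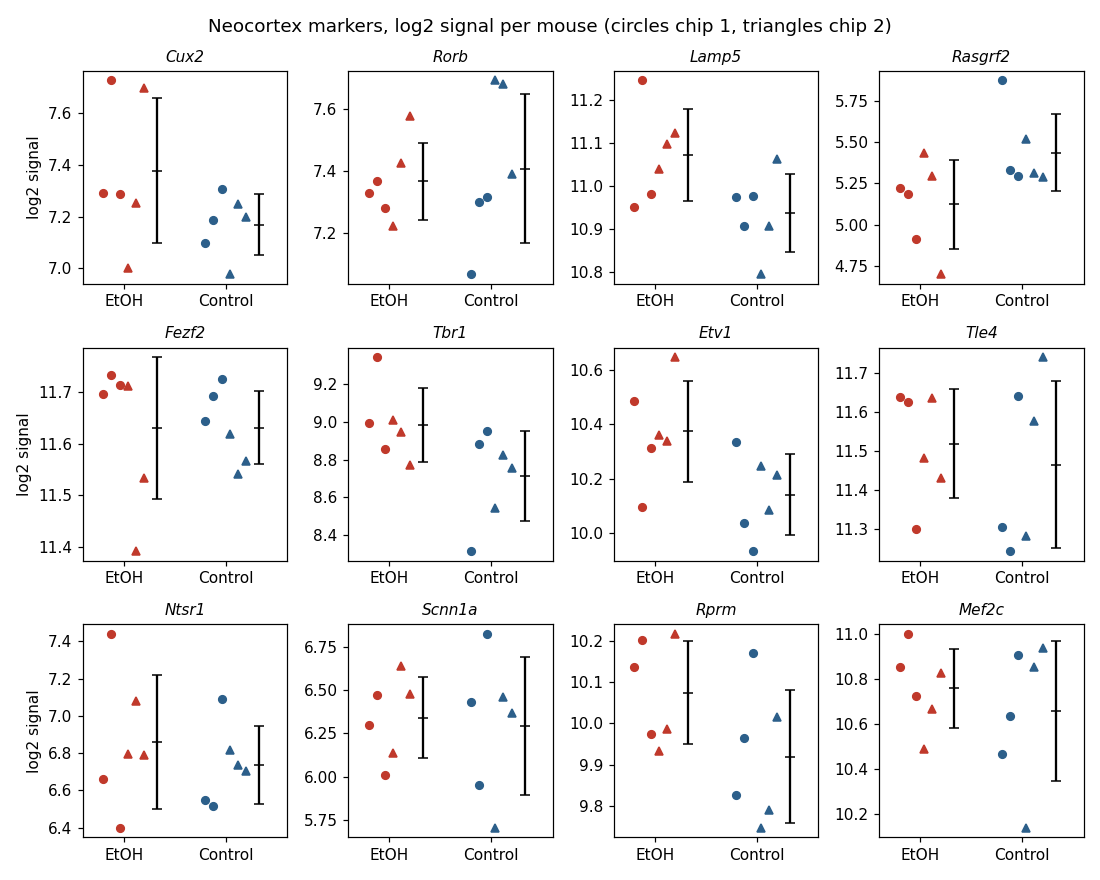
Log2 signal of the 12 tested neocortex markers at their brightest probe, drawn as for the thalamus and habenula markers. The groups overlap in every panel, with *Tbr1* between 8.77 and 9.34 in EtOH mice and between 8.31 and 8.95 in controls.

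No member passed the test for a difference between EtOH mice and controls. At an adjusted p under 0.05, 0 of 39 member probes and 0 of all 19288 probes tested were called (0%), and the adjusted p of the members lay between 0.717 and 0.999. At an unadjusted p under 0.05, 6 of 39 member probes (15.4%) were higher in EtOH mice, beside 3.36% of all probes, and 1 of 39 (2.56%) was lower, beside 3.08% of all probes. The 6 higher probes were those of *Tac2* and *Tbr1*, 2 of *Etv1* and the dimmer probes of *Mef2c* and *Amotl1*, and the lower one was that of *Rasgrf2*. *Rasgrf2* met the filter of 6 arrays through 4 controls, the group where it was higher, and 2 EtOH mice. Without background correction its difference was -0.13 (unadjusted p = 0.064, limma). In that setting 7 member probes were higher and 0 lower at an unadjusted p under 0.05. Over all probes 674 were then higher and 680 lower. With arrays scaled to a common median in place of quantile normalisation, 1 member probe was higher and 1 lower at that level, and over all probes 147 were higher and 637 lower. No member probe had groups that did not overlap, beside 0.264% of all probes, and none passed both a fold of 1.5 and an unadjusted p under 0.05.

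The differences of the members were small and mostly above zero. Of the 24 tested genes, 20 had a positive difference at the brightest probe (83.3%), beside 53.8% of all 10835 tested genes. The median difference was 0.07 over the 12 thalamus and habenula genes and 0.11 over the 12 neocortex genes, beside 0.01 over all tested genes. These are descriptions of the lists, whose genes share the same mice. In whole tissue, fewer cells of a type and less RNA per cell cannot be told apart.

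**Figure D3:**
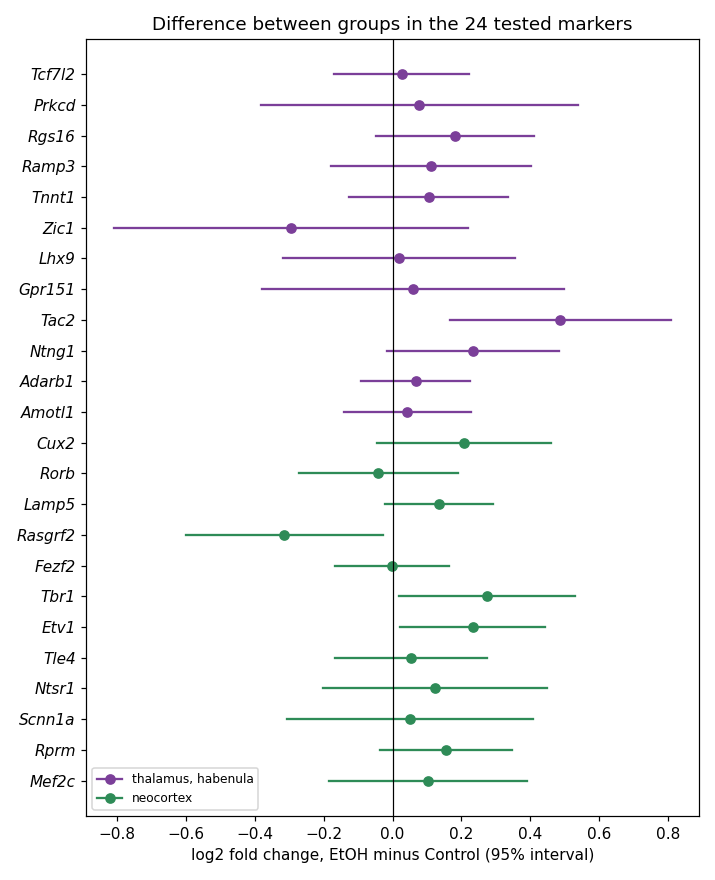
Difference between groups on the log2 scale, EtOH minus control, for the 24 tested members at their brightest probe, with 95% intervals from limma. *Tac2* has the largest difference at 0.49 and *Rasgrf2* the most negative at -0.31, and most intervals include 0. Without background correction the largest is that of *Tbr1* at 0.23 and the most negative that of *Zic1* at -0.17.

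The chips differed at many probes. With group in the fit, 86 of 19288 probes (0.446%) differed between chip 2 and chip 1 at an adjusted p under 0.05, and 0 member probes did. At an unadjusted p under 0.05, 5 of 39 member probes were higher on chip 2, beside 9.53% of all probes, and 2 were lower, beside 5.6% of all probes. *Tcf7l2* was 0.21 higher on chip 2 (unadjusted p = 0.013, limma). The groups were balanced over the chips.

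Some members varied more from mouse to mouse than most probes. The spread within groups, as the pooled SD of the log2 signal, was 0.48 for *Zic1*, 0.43 for *Prkcd* and 0.41 for *Gpr151*. These lay at percentiles 98.8, 97.7 and 96.8 of all tested probes. At the other end, *Lamp5* and *Adarb1* had pooled SDs of 0.10 each, at percentiles 7.25 and 7.50. The percentiles are over probes of all signal levels. *Gpr151* was near background, at 106.9 to 139.7 before normalisation in EtOH mice and 115.9 to 148.8 in controls. *Lamp5* and *Adarb1* had mean log2 signals of 11.07 and 11.31 in EtOH mice. The part of signal level in these spreads was not tested.

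The thalamus and habenula markers had a median correlation near 0 with each other over the 12 hippocampi after quantile normalisation. Over 66 pairs of the 12 tested genes, the median Pearson r was 0.05, and 0 pairs had an r above 0.6. Over the 66 pairs of neocortex genes the median was 0.15 and 10 pairs (15.2%) had an r above 0.6, beside a median of 0.001 and a share of 3.01% over all pairs of tested genes. Between the sets the median over 144 pairs was 0.07 and 5 pairs (3.47%) were above 0.6. After the mean of each chip and group was taken off, the median was -0.07 for the thalamus and habenula, 0.16 for the neocortex and 0.05 between the sets, beside 0.0005 over all pairs. In that setting 2 pairs (3.03%) within the thalamus and habenula, 11 (16.7%) within the neocortex and 12 (8.33%) between the sets had an r above 0.6, beside 5.07% of all pairs. With median scaling the medians were 0.20 for the thalamus and habenula, 0.44 for the neocortex and 0.29 between the sets. The median over all pairs of tested genes with median scaling is not given here, so these values are not shown to be particular to the members. These correlations share arrays and normalisation and are given with no test.

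**Figure D4:**
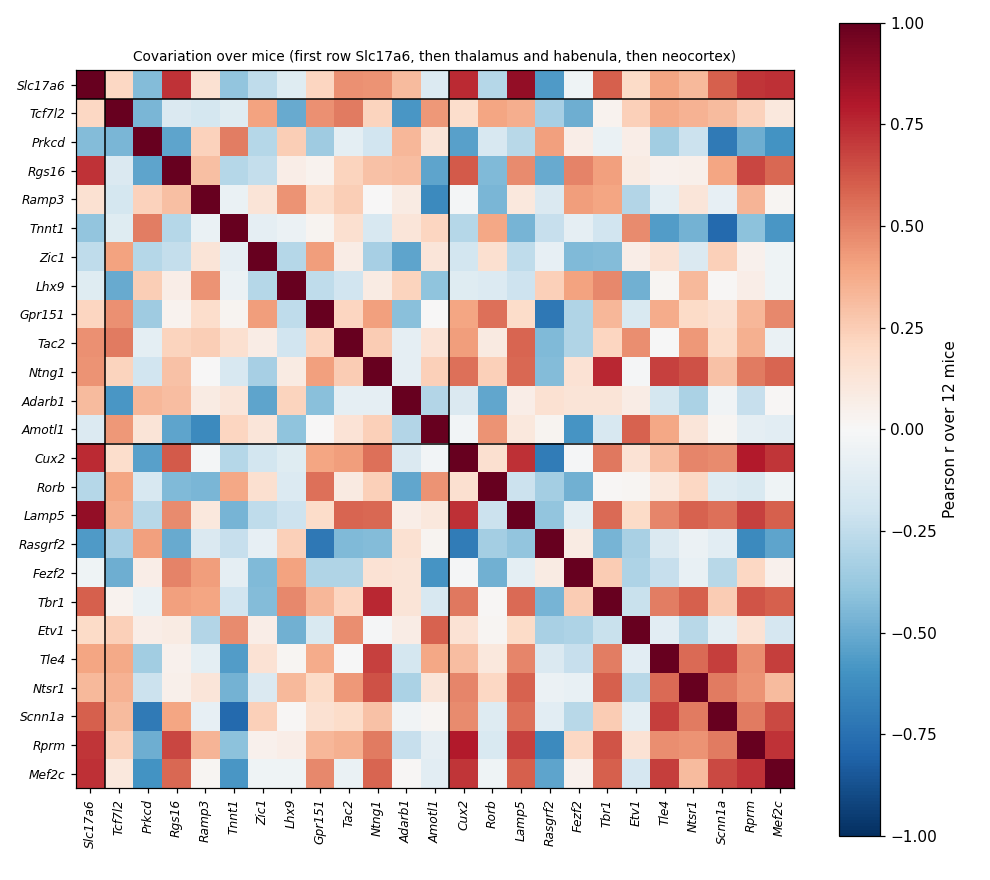
Pearson r over 12 mice between each pair of tested members, with *Slc17a6* in the first row and column. The block of thalamus and habenula genes has a median r of 0.05 and holds no pair above 0.6, and the neocortex block has a median of 0.15 with 10 pairs above 0.6.

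*Tcf7l2* was set against each of the other 23 tested members as the most widely used thalamic marker of the list. None of these 23 correlations had an unadjusted permutation p under 0.05, and r ran from -0.58 for *Adarb1* (rho = -0.40) to 0.52 for *Tac2* (rho = 0.50). The *Adarb1* correlation had an adjusted p of 0.323 (permutation test, 47 relations) and the *Tac2* correlation one of 0.400. Over the 11 other thalamus and habenula genes the median r with *Tcf7l2* was -0.12, and over the 12 neocortex genes it was 0.23. Since *Tcf7l2* was higher on chip 2, the same was taken after the chip and group means were removed, and these medians were then 0.26 and 0.47. The sign for the thalamus and habenula thus turned. In that setting 4 of the 23 relations had an unadjusted p under 0.05 (exact permutation test within chip and group), the highest with *Rprm* at r = 0.84 (adjusted p = 0.174), and 0 passed adjustment. *Prkcd*, which marks relay neurons as *Tcf7l2* does, had an r of -0.46 with it (rho = -0.34, adjusted p = 0.424). Within the chips that r was -0.94 on chip 1 and -0.45 on chip 2, and without EtOH mice 6 and 1, which lay farthest from the median of *Tcf7l2*, it was -0.18.

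*Slc17a6*, the gene the study followed, is abundant in thalamus and habenula and was the second gene each member was set against. Its log2 signal was 10.76, 11.58, 11.10, 10.99, 11.20 and 11.48 in EtOH mice 1 to 6, and 10.63, 10.66, 10.85, 9.42, 10.71 and 10.81 in control mice 1 to 6. Control mouse 4 stood far below all the other mice. These are the values of ILMN_2922321, the brighter of 2 probes annotated to *Slc17a6*, and the signals of both were correlated over the mice (r = 0.99). As read here, the paper's supplement lists ILMN_2922321 for *Tshz2* and the other probe, ILMN_2773047, for *Slc17a6*. The platform annotation, which names both *Slc17a6*, was followed. With the other probe, an alternative chosen after seeing the data, the r of *Lamp5* with *Slc17a6* was 0.87 (adjusted p = 0.0146, permutation test). Of 24 members, only *Lamp5* was correlated with *Slc17a6* past an adjusted p of 0.05, with r = 0.88 (adjusted p = 0.008) and rho = 0.91 (adjusted p = 0.0052, permutation tests). The r between *Lamp5* and *Slc17a6* was 0.91 within EtOH mice, 0.82 within controls, 0.91 on chip 1, 0.93 on chip 2, and 0.81 without control mouse 4 and EtOH mouse 2. After the chip and group means were taken off, it was 0.81, with an unadjusted p of 0.0069 and an adjusted p of 0.109 (exact permutation test within chip and group). Its adjusted p was 0.0855 without EtOH mouse 6 and 0.203 with median scaling, where r was 0.55.

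Another 5 members had an unadjusted p under 0.05 for r with *Slc17a6* and did not pass adjustment. *Cux2* had r = 0.74 (rho = 0.73, adjusted p = 0.073) and *Rprm* had r = 0.71 (rho = 0.74, adjusted p = 0.073, permutation tests). Without control mouse 4 and EtOH mouse 2 these were 0.67 and 0.51. *Mef2c*, *Rgs16* and *Scnn1a* had r = 0.73, 0.72 and 0.60 over all 12 mice, and 0.09, 0.32 and 0.16 without these 2 mice, so over all mice these relations rest on them. Without control mouse 4 alone, r was 0.34 for *Mef2c*, 0.42 for *Rgs16* and 0.21 for *Scnn1a*. After the chip and group means were taken off, with all 12 mice kept, r was 0.89 for *Mef2c*, 0.65 for *Rgs16* and 0.69 for *Scnn1a*. The adjusted p were 0.109, 0.194 and 0.178 (exact permutation test within chip and group). All but *Rgs16* are neocortex markers. Of the thalamus and habenula genes, *Tcf7l2* had r = 0.21 with *Slc17a6* and *Prkcd* had r = -0.43. *Tac2* had r = 0.46 and rho = 0.76 (adjusted p = 0.424 and 0.090, permutation tests). Without control mouse 4 and EtOH mouse 2 the r of *Tac2* with *Slc17a6* was 0.92. It was 0.74 within EtOH mice and -0.59 within controls, and after chip and group means were taken off it was -0.02.

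**Figure D5:**
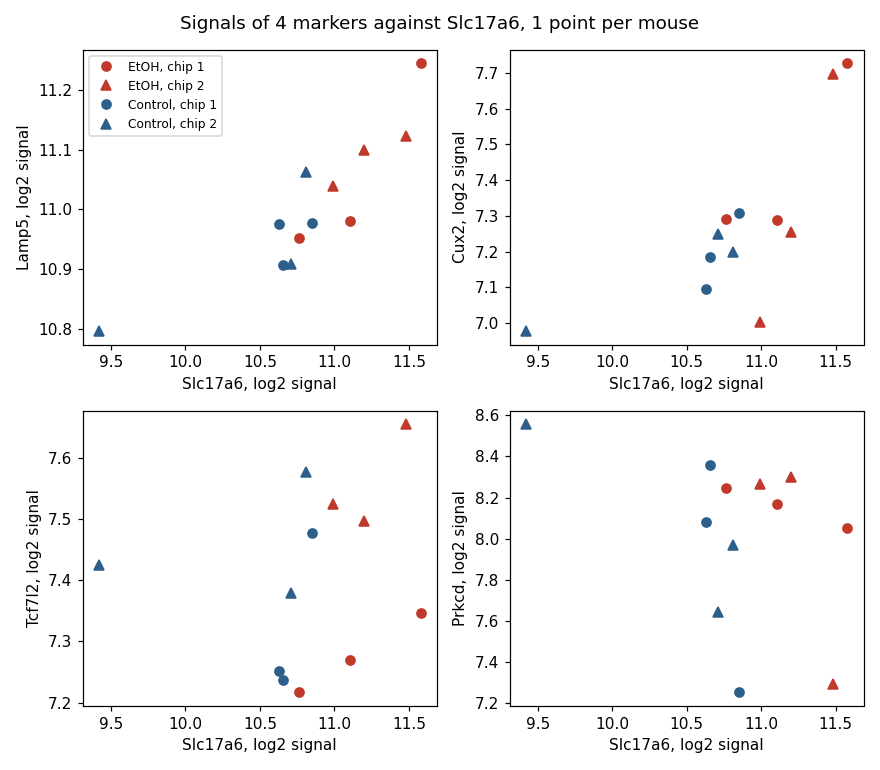
Log2 signal of 2 neocortex markers, *Lamp5* and *Cux2*, and 2 thalamus markers, *Tcf7l2* and *Prkcd*, against that of *Slc17a6*, 1 point per mouse. *Lamp5* follows *Slc17a6* (r = 0.88), *Tcf7l2* (r = 0.21) and *Prkcd* (r = -0.43) do not pass the test, and control mouse 4 lies far to the left at 9.42.

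The mean z score of the 12 thalamus and habenula genes was 0.097 to 0.461 in EtOH mice and -0.585 to 0.025 in controls, so that for this mean, unlike for any single member, the groups did not overlap. The mean z score of the 12 neocortex genes was -0.371 to 0.972 in EtOH mice and -0.742 to 0.391 in controls, which overlapped. These scores are descriptions, with no test, of lists chosen with earlier results of these data known. How often the means of other sets of 12 genes do not overlap is not given here. Dim probes, such as those of *Tac2* and *Gpr151*, weigh as much in the scores as bright ones. Genes outside the list that followed the mean of the members across mice were looked for among 10811 tested genes. The mean z score of the thalamus and habenula genes was best followed by *Rab9b* (r = 0.84), *Reep1*, *Zfp810*, *Tmed8*, *Grap*, *B3galt6*, *Zfp607b*, *Spock3*, *Stx3* and *Nucks1* (r = 0.80), and *Slc17a6* ranked 1796 with r = 0.34. Of these 10 genes, 9 had an unadjusted p under 0.05 between the groups (limma), all but *B3galt6*. Over all tested genes, 3.79% were higher and 2.71% lower in EtOH mice at that level. The 10 genes were picked for following a score that did not overlap between the groups, so this count is no separate evidence. The mean z score of the neocortex genes was best followed by *Arpp21* (r = 0.96), *Gm11837*, *Casp1*, *Klf5*, *Cobl*, *Cntnap4*, *Bnip5*, *Cdkl4*, *Nrep* and *Cbln4* (r = 0.87), and *Slc17a6* ranked 106 with r = 0.74. Among the 10 genes that best followed the neocortex score, only *Cntnap4* had an unadjusted p under 0.05 between the groups (limma). An r above 0.7 was reached by 65 genes for the thalamus and habenula score and by 171 for the neocortex score, over the same 12 mice.

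Further markers of the same regions, also chosen with earlier results of these data known, were set beside the members. Of 14 further thalamus and habenula genes, 7 were tested, of which 4 had a positive difference, with a median of 0.06, and 5 were detected on no array. *Slc17a6* was the only one at an unadjusted p under 0.05, with 11.19 ± 0.30 in EtOH mice and 10.51 ± 0.54 in controls (SD, n = 6 each), a difference of 0.67 (unadjusted p = 0.008, adjusted p = 0.717, limma). Of 11 further neocortex genes, 7 were tested, 6 had a positive difference and 0 had an unadjusted p under 0.05, with a median difference of 0.11.

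Markers of other regions and cells were read from the same arrays, in lists chosen with earlier results of these data known. Counts in these lists are thus descriptions and no separate evidence. Over all 10835 tested genes, 3.79% were higher and 2.71% lower in EtOH mice at an unadjusted p under 0.05. All 4 subiculum genes were tested and had positive differences with a median of 0.37, and 3 of them, *Ly6g6e*, *Cntn6* and *Nts*, had an unadjusted p under 0.05 (0.008, 0.018 and 0.027, limma), while *Fn1* differed by 0.04. Their summed signal on a linear scale was 611 to 871 in EtOH mice and 441 to 660 in controls. All 7 tested choroid plexus genes had negative differences, with summed signals of 778 to 27754 in EtOH mice and 1101 to 46229 in controls, and 0 of them had an unadjusted p under 0.05. All 7 astrocyte genes also had negative differences, and *Gfap* and *Aldoc* had an unadjusted p under 0.05 (0.004 and 0.038, limma). Of 7 tested oligodendrocyte genes, 5 had negative differences, and *Mobp* had an unadjusted p of 0.043. Of 6 striatum genes 3 and of 7 interneuron genes 5 had positive differences, and 0 of these had an unadjusted p under 0.05. None of the genes in these lists passed adjustment over all probes, and the part of subiculum, choroid plexus, astrocyte or oligodendrocyte RNA in the values of the members was not tested. All 11 pyramidal cell genes of the hippocampus and 5 of 7 dentate granule cell genes were tested, and 0 of them had an unadjusted p under 0.05.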

How the data were processed

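The authors hybridised RNA of 12 hippocampi to Illumina BeadChips and summarised beads in GenomeStudio 1.9.0. The deposited table used here holds the intensity of each probe before normalisation and, per array, the deposited detection p-value. A second deposited table holds the authors' quantile-normalised intensity, used as an alternative, which lay within 0.947% of quantile normalisation of the first. The authors' comparison of the groups, in GeneSpring, was not used here.

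Intensities were corrected by normexp (limma 3.58.1, R 4.3.3, negative controls inferred from detection p-values, offset 16), quantile normalised and put on the log2 scale. The filter kept probes with a detection p under 0.05 on 6 or more of the 12 arrays, and limma was fitted to these on group alone, with Benjamini-Hochberg adjustment over 19288 probes and a threshold of 0.05. The brightest tested probe stood for a gene. Probes were named from the platform annotation, where 34885 of 45281 probes carry 1 symbol, 18 several and 10378 none. Correlations were tested with 100000 permutations and adjusted over 47 relations. Deviations from chip and group means were permuted within chip and group in all 1296 ways. All 33 members were accounted for, and other genes were named by their correlation with the members' mean z score, or by the smallest p in their list. The members and lists were chosen with earlier results of these data known. The number of arrays limits the precision.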

Additional observations from a re-analysis of the deposited data

Results flagged for a closer look

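Each tested member was checked in each group for a mouse that stood far from the other 5, which made 48 checks. *Prkcd* in EtOH mouse 6 was picked out, with a log2 signal of 7.29 against 8.05 to 8.30 in the other 5 EtOH mice. The gap to the nearest mouse was 0.754 of the range of the group, past the 95% limit of Dixon's test. This was 1 of the 48 checks, and chance picks out about 1 in 20 groups. In controls, mouse 3 had a *Prkcd* signal of 7.25, as low as that of EtOH mouse 6, in a group that ran up to 8.56.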

How the results depend on the processing

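No setting gave a member probe an adjusted p under 0.05. The number of member probes at an unadjusted p under 0.05 was 7, against 2 with median scaling, 3 on chip 1 alone, 1 on chip 2 alone and 2 to 10 without each mouse (2 without control mouse 1, 3 without EtOH mouse 1, 4 without EtOH mouse 2 or control mouse 4, and 10 without EtOH mouse 5). As a share of the member probes this was 17.9%, beside 6.44% of all probes. It was 5.13% beside 4.06% with median scaling, 7.69% beside 8.59% on chip 1 alone and 2.56% beside 4.74% on chip 2 alone, so that on each chip alone the members were not above all probes. The median differences of the sets kept their sign in every setting, from 0.046 to 0.107 for the thalamus and habenula and from 0.044 to 0.155 for the neocortex without each mouse. The replicate block, with the replicate number as a term, gave 5 such probes. The correlation of same-numbered mice ran from -0.02 to 0.21, was above 0.1 for some numbers only, and the numbers were not taken as pairs.

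Some differences changed sign, and *Ntng1*, at 0.23 over both chips, was among them. With median scaling *Tcf7l2* was -0.034, *Lhx9* -0.021 and *Amotl1* -0.0093. On chip 1 alone *Tcf7l2* was -0.044, *Lhx9* -0.039, *Rorb* 0.10, *Fezf2* 0.027 and *Scnn1a* -0.14. On chip 2 alone *Prkcd* was -0.10, *Gpr151* -0.20, *Ntng1* -0.0094, *Amotl1* -0.018 and *Tle4* -0.016. Without each mouse, *Fezf2* lay between -0.022 and 0.046, *Gpr151* between -0.12 and 0.16, *Lhx9* between -0.088 and 0.12, *Mef2c* between -0.0013 and 0.16, *Prkcd* between -0.067 and 0.23, *Rorb* between -0.11 and 0.016, *Scnn1a* between -0.067 and 0.16, and *Tcf7l2* between -0.020 and 0.068.

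With median scaling, 1 member was correlated with *Tcf7l2* and 0 with *Slc17a6* past adjustment. The median pairwise r was then 0.20 within the thalamus and habenula, 0.44 within the neocortex and 0.29 between the sets, with no value over all pairs beside it. After chip and group means were taken off, 0 members were correlated with *Slc17a6* past adjustment and the thalamus and habenula median was -0.074. Without each mouse, 0 to 4 members were, with 0 without EtOH mouse 6, 2 without EtOH mouse 4 or control mouse 4, and 4 without EtOH mouse 5. The cause of these changes was not tested. The second probe of *Slc17a6*, an alternative chosen after seeing the data, left 1 member past adjustment, *Lamp5*. A median r was taken as moved when it shifted by more than its standard error from leaving out each mouse. Signals of *Tac2*, *Gpr151* and *Rasgrf2* near background limit what their differences can show.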
